A study of Mus musculus with 6 samples.

Results

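Genes that control the growth of blood vessels, together with genes that mark the cells of the vessel wall, were examined in cultured mouse brain astrocytes labelled WT and ADGRB1 KO. The group holds 32 genes taken by symbol from the 24318 rows of the deposited count table. They comprise 11 ligands, 9 receptors, 4 genes grouped as inhibitors and the transcription factor gene Hif1a. The others are 2 matricellular protein genes, 4 endothelial junction and surface genes and the pericyte gene Rgs5. All 32 symbols were found, and 30 of them passed the filter on low counts and were tested. Flt4 and Aplnr did not pass. The 6 libraries of poly-A selected RNA came from cells labelled WT (3 libraries) and ADGRB1 KO (3 libraries). The labels give neither strain, age and sex of the mice, nor the part of the gene that is deleted, nor whether replicates were separate cultures, so p-values measure only the spread between these libraries.

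ADGRB1 is an adhesion G protein-coupled receptor whose older name, brain-specific angiogenesis inhibitor, comes from thrombospondin-type repeats in its extracellular part. Fragments of that part restrain endothelial cells, and CD36 on the endothelial surface is their known receptor. In the brain, astrocytes release VEGF and other signals on which vessel growth and the barrier depend, while the receptors for most of these signals sit on endothelial cells and pericytes. Astrocytes are thus known as a source of such signals more than as their target.

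Libraries held 17460090 to 18897340 counts in WT and 19251607 to 20334442 in KO. Adgrb1 itself stood at 299, 363 and 317 CPM (counts scaled to library size) in the WT libraries and at 158, 140 and 117 CPM in the KO libraries, in the direction of the labels in 6 of 6 (edgeR adjusted p = 0.0684 over all genes, log2 fold change -1.24 ± 0.16, SE). Reads of Adgrb1 thus remained in every KO library, and loss of the protein was not tested. The summed level of 14 astrocyte markers was 37192 to 42593 CPM in WT and 40677 to 49808 CPM in KO. That of 12 oligodendrocyte markers was 5805 to 6668 CPM in WT and 3948 to 4548 CPM in KO, without overlap, and that of 15 microglia markers was 1958 to 2835 and 1710 to 2101 CPM. The 10 neuron markers summed to 138 to 207 CPM in WT and 175 to 186 CPM in KO. Libraries also differed in a trend with the GC content of genes: WT replicate 2, KO replicate 1 and KO replicate 2 had more reads on GC-rich genes, and the other 3 libraries fewer. The trend was weak in WT replicate 2 (Spearman correlation 0.056, against 0.388 and 0.355 in KO replicates 1 and 2). WT replicate 2 was the only WT library on its side, and KO replicate 3 the only KO library on the other. Differences within a side lean on these libraries and do not hold the trend constant. In bulk RNA, fewer cells of a type and less RNA per cell cannot be told apart.

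None of the 32 genes passed the test between KO and WT. With the quasi-likelihood test of edgeR, 0 members were higher and 0 lower at a p of 0.05 adjusted over 14131 genes, where 0% of all genes tested were called in either direction. DESeq2 called 0 members as well, beside 0.123% of all genes higher and 0.476% lower, and limma voom called 0, beside 0.00708% and 0.0212%. Without KO replicate 3, edgeR called 4 genes higher and 27 lower over all genes, among them 0 members. At an unadjusted p under 0.05, 2 members were higher (Pgf and Serpinf1) and 2 lower (Pdgfb and Eng), beside 2.34% of all genes higher and 3.83% lower. The median log2 fold change of the 30 tested members was -0.05, with 15 above and 15 below 0, and that of all genes tested was 0.01. For 3 members every KO library lay above every WT library (Pgf, Serpinf1 and Vash1), and for 3 every KO library lay below (Pdgfb, Eng and Rgs5). Of all genes tested, 5.28% did so upward and 5.87% downward.

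**Figure D1:**
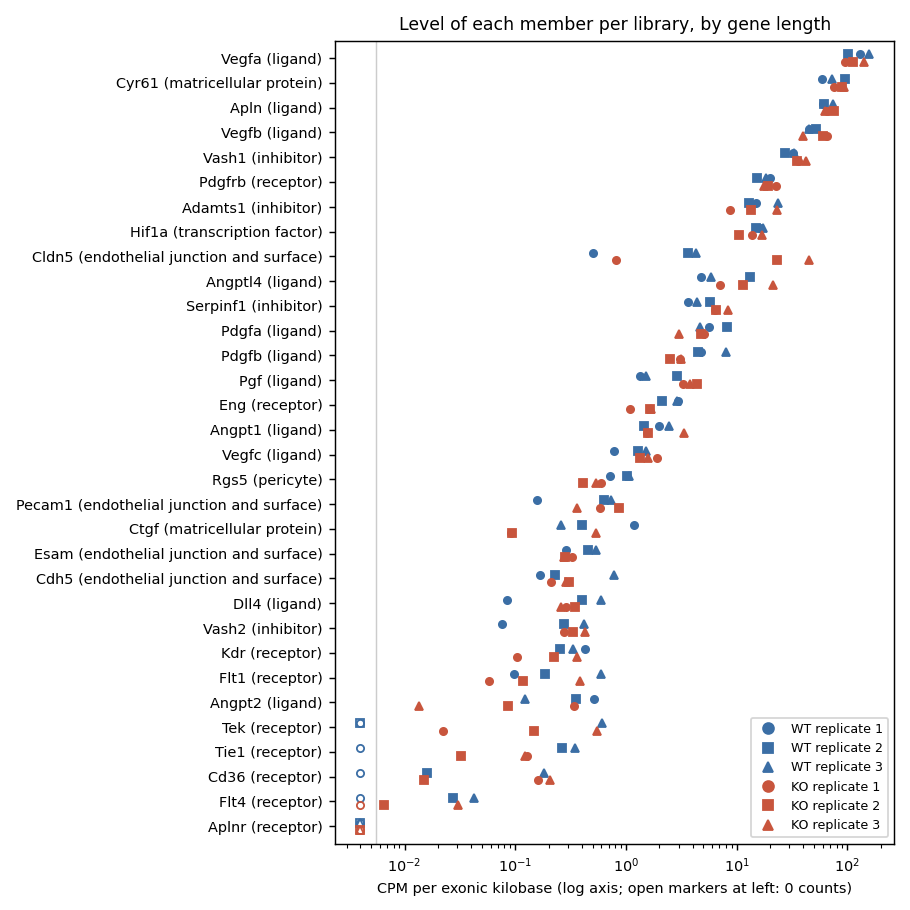
Level of each of the 32 members in every library, as CPM per kilobase of exons on a log axis, ordered by the mean of 6 libraries (blue: WT, red: KO; marker shape: replicate; open markers at the left: 0 counts). Vegfa is highest at a mean of 123 CPM per kilobase, most receptors lie below 1, and Cldn5 spreads more widely than its neighbours in the order.

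The members of highest level per kilobase, Vegfa, Cyr61, Apln and Vegfb, encode secreted proteins. Other secreted members were low, among them Angpt2 at 0.239 CPM and Ctgf at 0.428 CPM per kilobase. The VEGF receptor genes were low. Flt4 was near the floor of the data, at 0 to 7 counts per library. Kdr held 18 to 70 counts per library and Flt1 15 to 162. Per kilobase of exons, the mean level over 6 libraries was 123 CPM for Vegfa, 81.2 CPM for Cyr61, 66.9 CPM for Apln and 51.2 CPM for Vegfb. On the same scale it was 0.283 CPM for Kdr, 0.241 CPM for Flt1 and 0.0178 CPM for Flt4, the 3 receptors of the VEGF family. Aplnr, the receptor of apelin, held 0 counts in each of the 6 libraries, which allows up to 0.149 to 0.171 CPM per library for a count of 3. The apelin gene Apln stood at 192, 193 and 233 CPM in WT and 205, 241 and 199 CPM in KO. Ligand and receptor of this pathway were thus at opposite ends of the order.

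Among the ligands, Vegfa encodes the main growth factor of endothelial cells (chr17:46016993-46032369, GRCm38). It held 559, 438 and 673 CPM in the WT libraries and 412, 487 and 602 CPM in the KO libraries. The groups overlapped over most of their range, with a log2 fold change of -0.16 ± 0.20 (SE). Vegfb, a ligand of FLT1, was at 76.1 ± 5.87 CPM in WT and at 88.3 ± 21.2 CPM in KO (SD, n = 3 each). Vegfc, a factor for lymphatic vessels, was low at 1.91 to 3.74 CPM in WT and at 3.26 to 4.71 CPM in KO.

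Pgf, placental growth factor, is another ligand of FLT1 (chr12:85166635-85177790). Its WT libraries held 3.88, 8.43 and 4.39 CPM and its KO libraries 9.43, 12.8 and 11.0 CPM. All 3 KO libraries lay above WT replicate 2, the highest of WT, but by a small margin for KO replicate 1. On the log2 scale KO differed from WT by 0.99 ± 0.34 (SE), and the edgeR p was 0.0160 before and 0.682 after adjustment over all genes. Among the libraries with GC-rich genes high, KO minus WT was 0.38 in log2 CPM, and among the others 1.39.

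Pdgfb had the smallest p of the members. It encodes PDGF-B, the signal by which endothelial cells recruit pericytes (chr15:79995874-80014977). WT libraries held 20.0, 18.5 and 33.6 CPM and KO libraries 12.9, 10.4 and 13.0 CPM. The lowest WT library stood above the highest KO library, and WT replicate 3 stood apart from the other WT libraries. On the log2 scale KO differed from WT by -0.99 ± 0.26 (SE), and the edgeR p was 0.00379 before and 0.523 after adjustment over all genes. Without WT replicate 3 it was -0.67, and the adjusted p over 15 alternatives, among them DESeq2 and limma voom, ran from 0.0883 to 1. KO minus WT was -0.68 and -0.99 in log2 CPM on the 2 sides of the GC trend. The oligodendrocyte markers were lower in KO too, as given above, and their part in this difference was not tested. Adgrb1 lies on the same chromosome as Pdgfb (chr15:74516195-74589465), and the part of this position was not tested either.

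Pdgfa, the related ligand that drives oligodendrocyte precursors, was at 17.4, 25.3 and 14.5 CPM in WT and 15.7, 14.9 and 9.42 CPM in KO. The groups overlapped (log2 fold change -0.52 ± 0.28, SE). Of its exonic length, 26.07% overlaps an antisense gene, and no source used here says whether counting used strand, so its level is uncertain. Pdgfra, the receptor of PDGF-A and a marker of those precursors, stood at 574 ± 95.8 CPM in WT and at 333 ± 73.4 CPM in KO (SD, n = 3 each).

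Angptl4, a secreted inhibitor of lipoprotein lipase that is induced by fasting signals and hypoxia, varied widely between libraries. It stood at 17.0, 46.7 and 20.6 CPM in WT and at 25.1, 40.4 and 76.0 CPM in KO. WT replicate 2 exceeded KO replicates 1 and 2, and the log2 fold change was 0.75 ± 0.50 (SE). On the side of the GC trend with WT replicate 2 the KO minus WT difference was -0.55 in log2 CPM, and on the other side 2.02, so its direction was not the same in both. The angiopoietins, ligands of TEK, were low: Angpt1 stood at 7.58 to 12.7 CPM in WT and at 8.01 to 17.5 CPM in KO, and Angpt2 at 0.448 to 1.91 and 0.0499 to 1.26 CPM. Dll4, the Notch ligand of endothelial tip cells, stood at 0.328 to 2.29 CPM in WT and at 0.997 to 1.34 CPM in KO. Exons of Angpt1 and Dll4 overlap a gene on the opposite strand for 14.16% and 5.56% of their length.

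**Figure D2:**
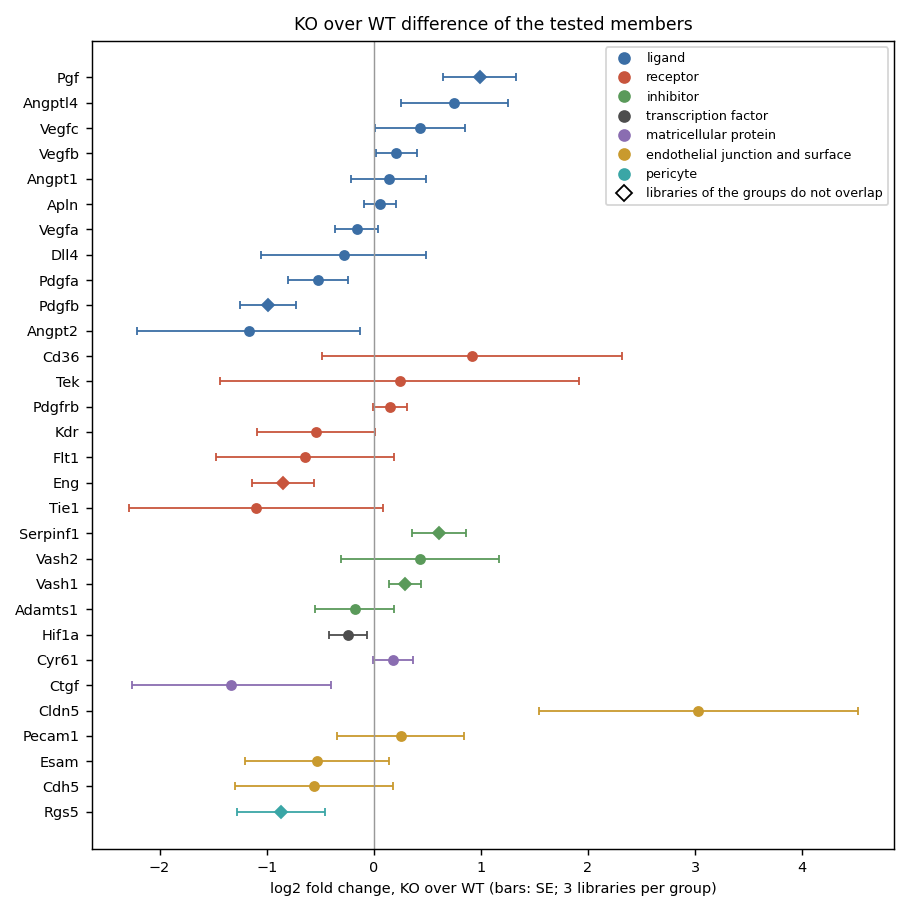
Log2 fold change of KO over WT for the 30 tested members, grouped by role (points: edgeR estimate, bars: SE, 3 libraries per group; diamonds: every KO library lies outside the range of WT). Bars are short for well expressed genes such as Apln and Pdgfrb and long for genes near 1 CPM, and 0 members passed over all genes tested.

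Receptors of endothelial cells were scarce in every library. Kdr, the main signalling receptor for VEGF-A, stood at 2.28 to 3.83 CPM in WT and at 0.943 to 3.29 CPM in KO. Flt1, which binds VEGF-A, VEGF-B and PlGF, was at 1.31, 2.51 and 8.07 CPM in WT and 0.785, 1.60 and 5.24 CPM in KO, with replicate 3 highest in each group. Tek and Tie1, the angiopoietin receptor and its partner, had 0 counts in WT replicate 1. Tek also had 0 in WT replicate 2, yet 2.84 CPM in WT replicate 3 and 2.59 CPM in KO replicate 3. Tie1 reached 1.69 CPM at most. Flt4, the receptor for VEGF-C, did not exceed 0.349 CPM.

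Cd36, the receptor for thrombospondin repeats and thus the known partner of ADGRB1 fragments, was barely detected. Its counts were 0, 1 and 13 in the WT libraries and 11, 1 and 15 in the KO libraries, or at most 0.748 CPM. Libraries of both groups ranged from near 0 to that level, and the fold change (0.92 ± 1.40, SE, log2) had an error larger than itself. With so few counts and such spread within each group, no change of Cd36 could be read from these libraries.

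Pdgfrb was the exception among the receptors. It encodes the PDGF-B receptor of pericytes and other mesenchymal cells, and stood at 109, 84.4 and 101 CPM in WT and 125, 105 and 96.9 CPM in KO. The groups overlapped (log2 fold change 0.15 ± 0.16, SE). Rgs5, a regulator of G protein signalling that marks brain pericytes, was far lower, at 0.729 CPM per kilobase against 18.9 CPM for Pdgfrb (means of 6 libraries). Rgs5 (chr1:169655501-169695813) held 3.28, 4.67 and 4.88 CPM in WT and 2.72, 1.87 and 2.44 CPM in KO, without overlap. On the log2 scale the difference was -0.87 ± 0.41 (SE), and the edgeR p was 0.0600 before and 0.819 after adjustment over all genes. The pericyte channel genes Kcnj8 and Abcc9 did not exceed 1.08 and 3.54 CPM in any library, and the 20 further pericyte and smooth muscle markers, some of them carried by other cells too, summed to 261 to 684 CPM per library.

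Eng, endoglin, is a co-receptor for TGF-beta and BMP ligands on endothelial and stromal cells (chr2:32646595-32682669). Its WT libraries held 11.9, 8.66 and 11.8 CPM and its KO libraries 4.40, 6.68 and 6.88 CPM. All KO libraries were below all WT libraries, and KO replicate 1 was lowest. On the log2 scale KO differed from WT by -0.85 ± 0.29 (SE), and the edgeR p was 0.0154 before and 0.673 after adjustment over all genes. The difference was -0.67 and -0.77 in log2 CPM on the 2 sides of the GC trend. Exons of Eng overlap Fpgs on the opposite strand over 61 bases, or 1.51% of its exonic length. The endothelial members other than Eng did not show such a separation, and the groups overlapped for Kdr, Flt1, Tek, Tie1, Pecam1, Cdh5, Cldn5 and Esam. Of the 15 microglia markers 14 had a fold change below 0. On that side 4 had an unadjusted edgeR p under 0.05, beside 3.83% of all genes tested. For 4 every KO library lay below every WT library (Csf1r, Cx3cr1, Tmem119 and Itgam), though the sums of the list overlapped. Of the 12 oligodendrocyte markers 11 were separated in the same way, as were 5.87% of all genes tested. Of the exonic length of Itgam, 68.67% overlaps Gm49368 on the same strand. The part of either list in the difference of Eng was not tested.

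Of the 4 genes grouped as inhibitors, Serpinf1 and Vash1 stood higher in every KO library than in every WT library, and Vash2 and Adamts1 overlapped. The action of Vash2 on vessels was not tested. Serpinf1 encodes pigment epithelium-derived factor, a secreted inhibitor of vessel growth (chr11:75409769-75422701). It held 8.58, 13.7 and 10.4 CPM in WT and 15.1, 15.3 and 19.7 CPM in KO. The gap between WT replicate 2 and KO replicates 1 and 2 was small beside the spread within WT. On the log2 scale KO differed from WT by 0.61 ± 0.25 (SE), and the edgeR p was 0.0339 before and 0.793 after adjustment over all genes. Within the GC sides the difference was 0.14 and 1.05 in log2 CPM.

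Vash1, vasohibin, is a tubulin carboxypeptidase gene first known as a negative feedback regulator of vessel growth (chr12:86678700-86692091). It stood at 83.6, 71.9 and 85.2 CPM in WT and at 93.1, 91.7 and 110 CPM in KO. Values were close together in both groups. On the log2 scale the difference was 0.29 ± 0.15 (SE), and the edgeR p was 0.0716 before and 0.819 after adjustment over all genes. It was 0.36 and 0.38 within the GC sides. The related gene Vash2 was near 1 CPM, at 0.328 to 1.79 CPM in WT and at 1.20 to 1.84 CPM in KO. Adamts1, a protease that releases anti-angiogenic fragments of thrombospondin, was at 79.0, 68.6 and 125 CPM in WT and 46.7, 71.8 and 123 CPM in KO, highest in replicate 3 of each group.

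**Figure D3:**
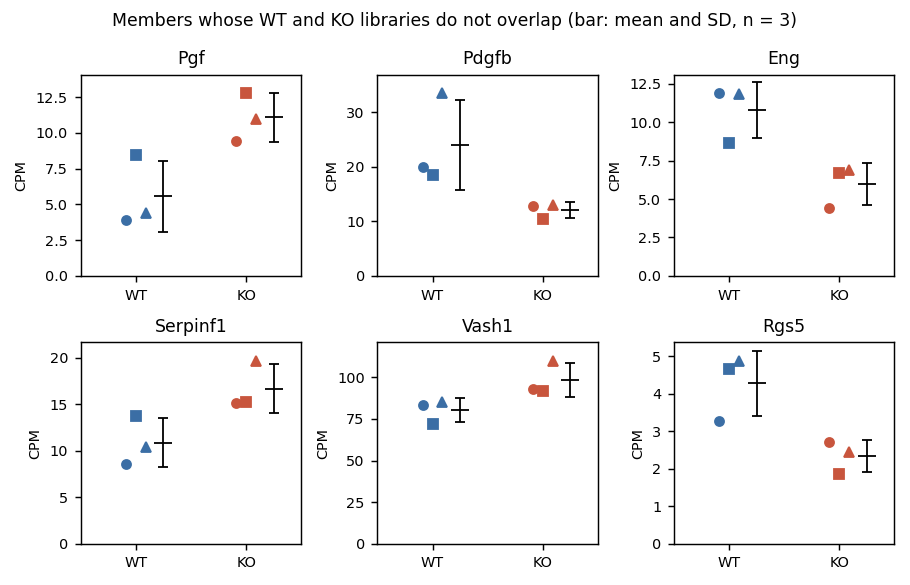
CPM in each library for the 6 members whose WT and KO libraries do not overlap, from 0 upward (circle, square and triangle: replicates 1, 2 and 3; bar: mean and SD, n = 3). Pgf, Serpinf1 and Vash1 are higher in KO and Pdgfb, Eng and Rgs5 lower, and in none does the difference pass over all genes tested.

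Hif1a, the oxygen-regulated subunit of the hypoxia factor, stood at 95.7, 87.5 and 103 CPM in WT and 80.9, 61.7 and 99.5 CPM in KO. KO replicate 3 lay within the WT range and the other KO libraries below it, at a log2 fold change of -0.24 ± 0.18 (SE). Exons of Hif1a overlap Gm49321 on the same strand and Gm15283 on the opposite strand. HIF-1 activity is set mainly by protein stability, which transcript levels do not show. The 28 genes of a list of hypoxia targets, all tested, lay at a median of 0.08 on the log2 fold scale, and 0 were called in either direction. At an unadjusted edgeR p under 0.05, 1 was higher and 2 were lower, beside 2.34% and 3.83% of all genes tested. The smallest p on each side belonged to Bhlhe40, a transcriptional repressor gene (138 ± 5.35 CPM in WT, 179 ± 1.90 CPM in KO), and Ndrg1 (245 ± 63.9 and 146 ± 24.4 CPM). Ndrg1 lies on the chromosome of Adgrb1 (chr15:66929318-66969640), and the part of its position was not tested.

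The matricellular proteins CYR61 and CTGF are secreted integrin ligands and textbook targets of the YAP and TEAD transcription factors, yet the levels of their genes were far apart. Cyr61 held 119, 193 and 148 CPM in WT and 154, 180 and 190 CPM in KO. Ctgf held 3.39, 1.14 and 0.747 CPM in WT and 0.262, 0.267 and 1.55 CPM in KO. Per kilobase the means of 6 libraries were 81.2 CPM for Cyr61 and 0.428 CPM for Ctgf. The groups overlapped for both genes, and WT replicate 1 was lowest for Cyr61 and highest for Ctgf. An antisense gene overlaps 23.24% of the exonic length of Ctgf. The 250 bases before the start of Cyr61 are shown because they hold the TEAD core motif, GGAATG or its reverse complement CATTCC, in capitals. Sequences here and below are from RefSeq on GRCm38.p6, printed 5′ to 3′ on the strand of the gene, and this one covers chr3:145649986-145650235 on the minus strand.
Cyr61: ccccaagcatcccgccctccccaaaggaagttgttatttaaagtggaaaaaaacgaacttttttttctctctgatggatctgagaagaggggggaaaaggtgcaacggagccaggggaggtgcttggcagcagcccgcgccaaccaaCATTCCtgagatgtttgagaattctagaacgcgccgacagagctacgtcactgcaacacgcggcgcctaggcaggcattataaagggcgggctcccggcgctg
The window holds 1 match, and 12.6% of 32851 promoter windows of the same length hold at least 1. Cyr61 was the only one of 22 members with a window in the table to hold the motif; Ctgf was not among those 22. Of 21 further YAP and TEAD target genes, 19 were tested, with a median log2 fold change of 0.04 and 0 called. At an unadjusted edgeR p under 0.05, 0 were higher and 1 lower, beside 2.34% and 3.83% of all genes tested. Arhgef17 (77.5 ± 10.9 CPM in WT, 94.1 ± 10.3 CPM in KO) and Dock5 (33.7 ± 8.48 and 17.1 ± 7.83 CPM) had the smallest p on each side. Ankrd1, another textbook YAP target, held 0 counts in all 6 libraries.

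Endothelial junction genes were low, with the exception of Cldn5. Cdh5, VE-cadherin of the adherens junction, stood at 0.711 to 3.29 CPM in WT and at 0.890 to 1.28 CPM in KO. Esam, an adhesion molecule of the tight junction, did not exceed 1.54 CPM. Pecam1, a surface adhesion molecule, was at 0.984, 3.93 and 4.58 CPM in WT and 3.61, 5.45 and 2.24 CPM in KO. Cldn5 encodes claudin-5, the main tight junction protein of the blood-brain barrier (chr16:18776847-18778262). It held 0.711, 5.19 and 6.08 CPM in WT and 1.15, 32.7 and 64.4 CPM in KO. The highest library stood 90.7-fold above the lowest, and only 27 of the 14131 genes tested (0.191%) had a larger SD of log2 CPM over the 6 libraries. The KO group contained both a library near the WT minimum and the highest values of all. Its log2 fold change of 3.03 ± 1.49 (SE) was the largest of the members and had an edgeR p of 0.0979 before and 0.825 after adjustment over all genes. Within the GC sides the difference was 0.28 and 4.84 in log2 CPM.

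The other endothelial genes shared the pattern of Cldn5 in part. In KO replicate 3, which held 1292 counts of Cldn5, Cdh5 had 24 counts, Esam 16 and Pecam1 45, and each of these 3 genes was higher in at least 1 other library. The receptor genes Kdr, Flt1 and Tek had 66, 105 and 52 counts there and, like Cldn5, were lowest in KO replicate 1 and highest in KO replicate 3 among the KO libraries. For all 3 receptors a WT library stood higher still, at 3.83 CPM for Kdr, 8.07 CPM for Flt1 and 2.84 CPM for Tek. The receptor gene Tie1 did not have the order of Cldn5 within KO, at 0.628, 0.160 and 0.598 CPM. Abcb1a, a drug efflux pump gene of brain endothelium, was picked after its values were seen. It held 1.69, 6.55 and 8.52 CPM in WT and 0.995, 8.01 and 13.0 CPM in KO, the same order as Cldn5 within each group. Other listed endothelial markers fell from KO replicate 1 to KO replicate 3. Among them were Emcn (1.31, 1.07 and 0.798 CPM), Vwf (1.68, 1.34 and 1.15 CPM) and Sox7 (6.75, 6.09 and 4.79 CPM). Promoter windows of Cldn5 and of Tek, a receptor gene found mainly in endothelium, are shown for comparison, with matches to GGAA or its reverse complement TTCC, the core of sites for ETS factors that act in endothelial cells, in capitals. They cover chr16:18776597-18776846 on the plus strand and chr4:94739039-94739288 on the plus strand.
Cldn5: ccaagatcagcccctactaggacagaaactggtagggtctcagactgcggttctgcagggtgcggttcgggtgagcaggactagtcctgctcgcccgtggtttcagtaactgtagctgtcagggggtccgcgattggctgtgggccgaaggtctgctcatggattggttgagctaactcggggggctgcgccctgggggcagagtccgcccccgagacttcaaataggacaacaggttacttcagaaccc
Tek: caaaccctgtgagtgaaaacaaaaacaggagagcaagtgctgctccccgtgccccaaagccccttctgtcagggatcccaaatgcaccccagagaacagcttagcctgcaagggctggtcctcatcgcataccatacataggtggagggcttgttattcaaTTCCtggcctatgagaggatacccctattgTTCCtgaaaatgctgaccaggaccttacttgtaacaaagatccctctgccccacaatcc
The window of Tek holds 2 matches and that of Cldn5 has 0. GGAA is short, so 93.4% of all windows hold at least 1 match, and 20 of the 22 members with a window do. GGAATG contains it. The lack of these letters says only that they are not in these 250 bases.

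Some genes of other lists had their lowest and highest values in the same libraries as Cldn5. Chosen after their values were seen, these were Vtn (vitronectin, listed as a pericyte marker), Thbs2 (thrombospondin, an inhibitor of vessel growth) and Islr (listed as a fibroblast marker). Vtn held 3.33, 72.8 and 29.0 CPM in WT and 20.6, 182 and 368 CPM in KO. Thbs2 held 1.69, 17.2 and 7.82 CPM in WT and 5.92, 53.7 and 89.5 CPM in KO. Islr held 4.81, 29.8 and 14.1 CPM in WT and 17.9, 44.3 and 67.9 CPM in KO. In all 4 genes WT replicate 1 was lowest, KO replicate 3 highest and KO replicate 2 next. None of the 4 passed over all genes tested (edgeR adjusted p of 0.825, 0.831, 0.825 and 0.825 for Cldn5, Vtn, Thbs2 and Islr). Some genes of the same lists did not share this order. Acta2 of the pericyte list (2.41, 1.87 and 1.45 CPM) and Col1a1 of the fibroblast list (27.1, 23.0 and 19.2 CPM) fell from KO replicate 1 to KO replicate 3. Tbx2 of the pericyte list had the order of Cldn5 (0.681, 1.76 and 3.44 CPM in KO). Which cells of the culture the reads came from was not tested.

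**Figure D4:**
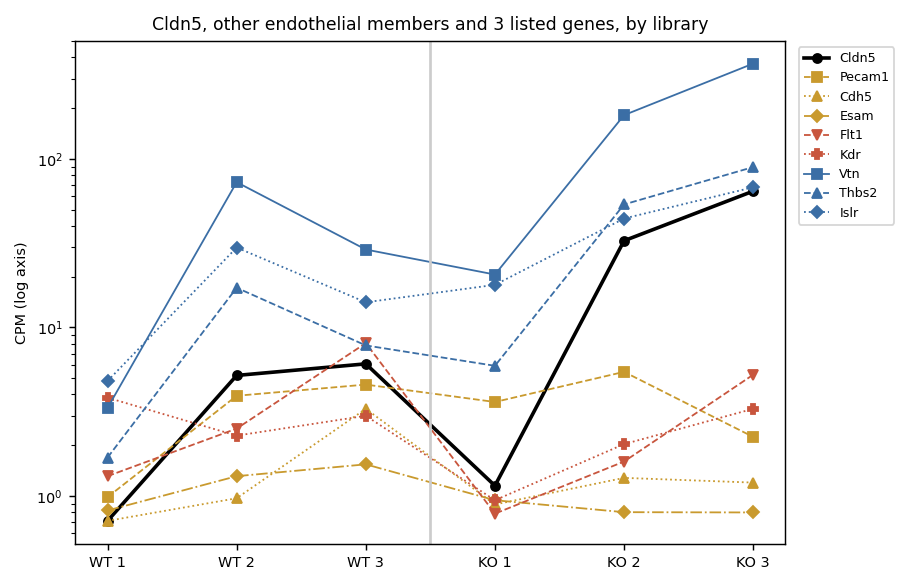
CPM on a log axis in each of the 6 libraries for Cldn5 (black), 5 other endothelial members (yellow and red) and Vtn, Thbs2 and Islr (blue); lines only join the values of a gene. Cldn5 runs from 0.711 CPM in WT replicate 1 to 64.4 CPM in KO replicate 3, and Cdh5, Esam and Pecam1 do not follow it. Kdr and Flt1 have the order of Cldn5 within KO, over a smaller range. Tek and Tie1 are not drawn, and Tie1 does not have that order.

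Further markers of vascular cells were examined as lists. Of 28 further endothelial markers 23 were tested, 0 were called, and the median log2 fold change was -0.18. At an unadjusted edgeR p under 0.05, 1 was higher and 1 lower, beside 2.34% and 3.83% of all genes tested. Their sum of 984 to 1091 CPM per library came mostly from the thyroid hormone transporter gene Slco1c1 (425 to 618 CPM) and the lipid transporter gene Mfsd2a (302 to 518 CPM). Some markers were low, Emcn at 0 to 2.89 CPM, Sox17 at 0.199 to 1.39 CPM and Erg at 0 to 1.45 CPM. Others were higher, among them Cd34 at 8.27 to 16.6 CPM, Ramp2 at 14.1 to 47.9 CPM and Pltp at 31.1 to 40.4 CPM. She, a signalling adaptor gene, and Abcg2, a drug efflux pump gene, had the smallest p on each side. She held 0, 0.171 and 0 CPM in WT and 1.05, 0.908 and 0.798 CPM in KO. Abcg2 was at 9.48 ± 1.65 CPM in WT and at 4.67 ± 1.41 CPM in KO.

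Of 20 further pericyte and smooth muscle markers 16 were tested, with 0 called and a median of 0.04. At an unadjusted edgeR p under 0.05, 2 were higher and 1 lower, beside 2.34% and 3.83% of all genes tested. Notch3, a Notch receptor of mural cells that astrocytes and progenitors can also carry, was at 30.1 ± 2.39 CPM in WT and at 49.5 ± 8.63 CPM in KO. Cspg4, the NG2 proteoglycan of pericytes and of oligodendrocyte precursors, was at 193 ± 39.5 and 129 ± 11.9 CPM. Fibroblast and meningeal markers, 9 of 15 tested, had a median of 0.35, with 8 above and 1 below 0, 0 called and 0 at an unadjusted p under 0.05 in either direction. They summed to 278 to 403 CPM per library, of which Igfbp2 gave 164 to 216 CPM. Islr, given above, and Fbln1, a matrix protein gene (46.7 to 49.1 CPM in WT, 34.2 to 58.1 CPM in KO), had the smallest p on each side. The collagen gene Col1a1 stood at 19.2 to 27.1 CPM, while Dcn did not exceed 0.995 CPM. DESeq2 called 1 gene of these 3 lists, Heyl, a Notch target listed with the pericyte markers, as higher in KO (22.3, 33.6 and 16.2 CPM in WT, 41.5, 64.6 and 99.9 CPM in KO).

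The rest of the angiogenesis pathway was examined in the same test. Of 70 further ligands, receptors, matrix and protease genes 65 were tested, 0 were called, and the median log2 fold change was -0.04, with 31 above and 34 below 0. At an unadjusted edgeR p under 0.05, 2 were higher and 4 lower, beside 2.34% and 3.83% of all genes tested. Unc5b, a netrin receptor gene that limits vessel sprouting, had the smallest p on the lower side. It held 84.1, 79.6 and 65.1 CPM in WT and 30.1, 44.4 and 34.1 CPM in KO, a difference of -1.07 ± 0.18 (SE) on the log2 scale with an edgeR adjusted p of 0.272 over all genes. The groups were well separated, and Unc5b passed with DESeq2, as did Pdgfra on the same side. The part of the lower oligodendrocyte markers in both was not tested. Mdk, midkine, a heparin-binding growth factor gene, had the smallest p on the higher side, at 87.3 ± 24.0 CPM in WT and at 126 ± 7.43 CPM in KO (SD, n = 3 each). Epas1, which encodes the hypoxia factor HIF-2 alpha, was at 451 ± 45.9 and 432 ± 25.2 CPM (log2 fold change -0.06 ± 0.14, SE).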

How the data were processed

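The table deposited by the authors gives estimated counts by gene symbol, not normalized, for 6 poly-A libraries (3 WT, 3 KO). Per the submitters' processing notes the tools were TopHat2 and featureCounts and the builds GRCm38 and mm9, with no roles stated. No source used here gives the annotation counted or the handling of strand and of shared reads. Under 1% of the values were not whole, and all were rounded. KO was compared with WT over all genes by the edgeR 4.0.16 quasi-likelihood test (R 4.3.3) with filterByExpr, TMM, robust dispersion and Benjamini-Hochberg adjustment over 14131 genes, at 0.05. CPM are scaled by TMM, and differences within the GC sides use log2 CPM with a prior count of 2. Floors and intervals of counts cover counting error only. Coordinates, exonic length and overlaps are from GENCODE M21 (GRCm38), which matched 98.5% of symbols, and are not the authors'.

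Alternatives were DESeq2 1.42.0, limma 3.58.1 (voom), other scalings and filters, the replicate number as a block, 2 GC corrections and leaving out each library. The members and lists were chosen with earlier results of these data known. All members are named, and from each pathway or vascular list the gene of smallest p on each side, as values. For the other marker lists sums are given. The microglia and oligodendrocyte lists also have counts of separated genes, and the separated microglia genes are named.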

Additional observations from a re-analysis of the deposited data

How the results depend on the processing

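In the main test and in 15 alternatives, 0 members were called higher and 0 lower. The smallest adjusted p of a member was 0.0782, for Cldn5 with the replicate number as a block, followed by 0.0883 for Pdgfb with DESeq2. Pgf (0.79 to 1.41), Serpinf1 (0.47 to 0.80), Vash1 (0.18 to 0.37), Pdgfb (-1.16 to -0.67), Eng (-0.99 to -0.68) and Rgs5 (-1.02 to -0.67) kept their direction in all 15. These genes were picked because their groups did not overlap, so leaving out a library could hardly turn their direction. Members whose groups overlapped kept theirs as well, among them Angptl4 (0.22 to 1.32) and Kdr (-1.03 to -0.19). Directions turned for genes near 0: Vegfa (0.00), Adamts1 (0.03) and Pecam1 (-0.05) with a batch term for the side of the GC trend, Angpt1 (-0.22) and Dll4 (0.16) with limma voom, Dll4 (0.01) with the replicate block, and Apln (-0.02 with total counts, -0.01 with the GC and length trend removed). When each library was left out in turn, the range crossed or reached 0 for Vegfa (-0.31 to 0.00), Angpt1 (-0.34 to 0.32), Dll4 (-0.74 to 0.29), Apln (-0.03 to 0.16), Flt1 (-1.73 to 0.41), Tek (-1.24 to 7.42), Adamts1 (-0.62 to 0.12), Vash2 (0.00 to 0.97), Pecam1 (-0.18 to 0.62) and Cdh5 (-0.92 to 0.42). The cause was not tested.

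Genes of the other lists were called in some alternatives, 11 with DESeq2, 8 with the replicate block, 6 with the GC and length trend removed, 9 with a batch term for the side of the GC trend, and 0 to 2 when a library was left out. All were lower in KO except Heyl, and most were oligodendrocyte markers. The correlation of deviations between same-numbered libraries was 0.0873, 0.15 and 0.284, so the numbers were not taken as pairs, although each library correlated best with its own number. With the block, 7 genes were higher and 37 lower over all genes, against 0 and 0 without it. DESeq2 called 16 and 62, limma voom 1 and 3, the trend removal 3 and 12, the batch term 14 and 74, and the fit without the low-count filter 2 and 4. Without KO replicate 3 the counts were 4 and 27, and without WT replicate 1 they were 0 and 1. Adgrb1 stayed lower in all 15 alternatives and passed in 7 of them, DESeq2 and limma voom included (-1.35 to -1.13 when a library was left out). The 10 members of highest level were the same with and without division by length. Depth limits what can be said of members near 1 CPM, whose fold changes had errors of 0.67 or more on the log2 scale.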

Other observations

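Beyond Vtn, Thbs2 and Islr, a few listed genes were lowest in WT replicate 1 and highest in KO replicate 3, with KO replicate 2 next, as Cldn5 was. Alx4, of the fibroblast and meningeal list, and Cxcr4, of the angiogenesis pathway list, were picked after their values were seen. Both lists were compared above. Plat, Efnb2 and Met of the pathway list also had this order. Alx4, a homeobox gene of craniofacial mesenchyme, held 0.0547, 11.4 and 1.79 CPM in WT and 2.04, 31.6 and 46.5 CPM in KO. Cxcr4, a chemokine receptor gene, held 1.97, 15.6 and 6.28 CPM in WT and 6.75, 24.7 and 37.1 CPM in KO. In Alx4 and in Cxcr4 the KO libraries spread from within the WT range to far above it.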
